A study of Homo sapiens with 12 samples.

Results

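The genes described here are 7 regulators of caspases: 4 inhibitor of apoptosis genes (IAPs; XIAP, BIRC2, BIRC5 and BIRC6), the IAP antagonist DIABLO, and the initiator caspases CASP8 and CASP9. They were chosen by gene symbol, with earlier results of these data known, and all 7 were found among the 20308 genes of the expression table. The cells were C4-2, an established human line of castration-resistant prostate cancer, with either an empty vector control (NC) or a construct that overexpresses ALKBH5 (oeALKBH5). ALKBH5 is an enzyme that erases the RNA mark m6A, N6-methyladenosine. Each group gave 3 input libraries, made from rRNA-depleted total RNA without m6A pull-down, and 3 m6A pull-down libraries, 12 in all. The comparison below used the 6 input libraries and asked how mRNA differed after overexpression. The vector's promoter and whether the cells were a pool or a single clone are not given in the sources used here. Since the labels do not tie the replicates to separate cultures, p-values here reflect library-to-library spread alone, part or all of which may be technical.

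IAPs carry BIR domains, zinc-binding folds that grip caspases or their partners. XIAP blocks caspases directly, among them the initiator caspase 9. Cytochrome c leaving the mitochondria builds the apoptosome, on which caspase 9 becomes active, while DIABLO (also called SMAC) leaves with it and displaces caspases from IAPs. Caspase 8 is activated instead at death receptors on the cell surface. Survivin, the product of BIRC5, acts mainly in cell division, as a subunit of the chromosomal passenger complex.

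Levels are in FPKM, which corrects fragment numbers for transcript length and library total, so genes can be compared per length. Library sums lay between 511333 and 524905 FPKM. Absolute depth is unknown; depth relative to NC replicate 1, read from the commonest ratio among low genes, ran from 0.78 in oeALKBH5 replicate 2 to 1.13 in NC replicate 2. ALKBH5 itself stood at 64.9, 61.1 and 58.2 FPKM in NC and at 80.3, 74.3 and 72.5 FPKM in oeALKBH5 replicates 1, 2 and 3. The groups did not overlap, but the log2 fold change, computed on log2(FPKM + 1), was 0.30 (SE 0.10) and missed the 0.05 threshold (limma adjusted p = 0.114). All 9 luminal prostate markers were expressed, with a summed level of 2234 to 2267 FPKM in NC and 2244 to 2478 FPKM in oeALKBH5. Of these, limma called 1 higher, KRT8, a keratin of luminal cells, beside 3.02% of the 12757 genes tested. Of 5 immune markers 3 were tested and limma called none. At an unadjusted p under 0.05, 1 was higher, beside 11.6% of the genes tested. The summed level of the 5 was 0.521 to 2.8 FPKM in NC and 3.49 to 7.85 FPKM in oeALKBH5. The T cell gene CD3D (0.35 ± 0.303 FPKM in NC, 1.83 ± 0.639 FPKM in oeALKBH5, no overlap, limma adjusted p = 0.111) and the myeloid gene LYZ (0.132 ± 0.229 and 2.32 ± 2.07 FPKM) were higher on average, and CD3E (1.14 ± 0.808 and 0.691 ± 0.621 FPKM) was not. The defining leukocyte gene PTPRC was at 0 to 0.0668 FPKM in NC and 0.213 to 0.456 FPKM in oeALKBH5, and the monocyte gene CD14 reached at most 0.299 FPKM. Fibroblast markers summed to 3.86 to 12.6 FPKM in NC and 2.17 to 27.7 FPKM in oeALKBH5, nearly all of it COL1A1, while DCN and LUM were listed at 0 throughout.

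XIAP was the member that rose, by about 1.9-fold, and CASP9 was about 2.03-fold higher without passing the test. BIRC5 was the 1 member with a lower mean after overexpression, and it did not pass the test either. Of the 7 members, limma called 1 higher, against 3.02% of all 12757 genes tested, and none lower, against 2.43% (5.45% in either direction). At an unadjusted p under 0.05 there were 2 higher, XIAP and CASP9, against 11.6% of all tested genes, and 1 lower, BIRC5, against 10.3%. The groups did not overlap for 2 members, both higher in oeALKBH5, where 15.1% of tested genes were higher without overlap, 13% lower, and 28.1% either. The median log2 fold change of the 7 was 0.29, beside 0.02 over all tested genes. All 7 passed the filter of a mean of at least 0.5 FPKM.

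**Figure D1:**
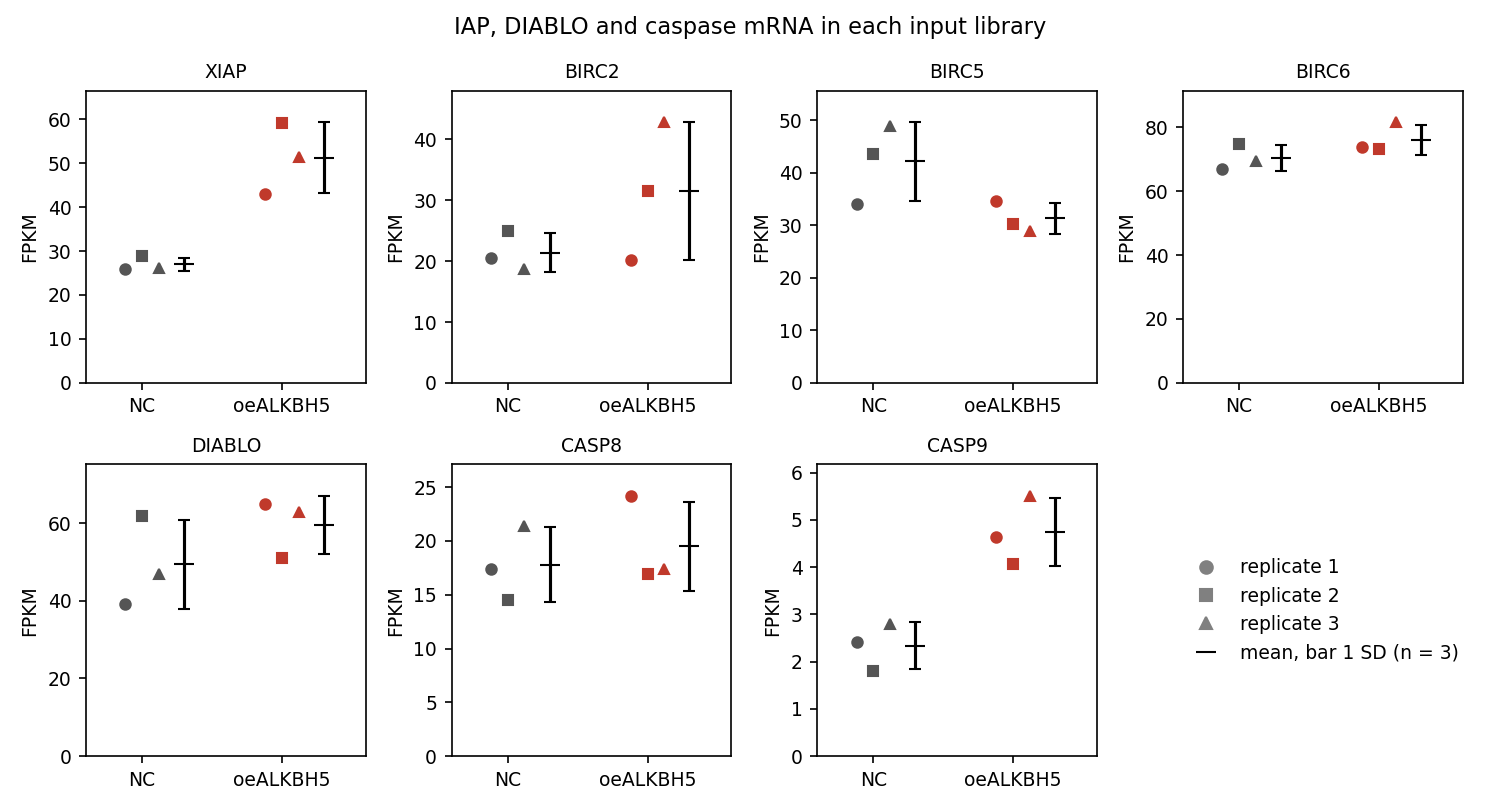
FPKM (linear axis from 0) of each member in the 3 NC and 3 oeALKBH5 input libraries; symbols mark replicates, and the bar beside them is the mean with 1 SD (n = 3). For XIAP and CASP9 every oeALKBH5 point lies above every NC point; in the other 5 panels the groups overlap.

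XIAP (ENSG00000101966, on chromosome X) stood at 26.0, 28.8 and 26.1 FPKM in NC replicates 1, 2 and 3 and at 43.1, 59.2 and 51.3 FPKM in oeALKBH5 replicates 1, 2 and 3. The NC libraries lay close together and every oeALKBH5 library lay above them. The mean went from 27.0 ± 1.57 to 51.2 ± 8.09 FPKM (SD, n = 3 per group), a log2 fold change of 0.89 (SE 0.14, 95% interval 0.57 to 1.21, limma adjusted p = 0.0102). For XIAP alone, a two-sided exact permutation test gave p = 0.1, the smallest that 3 against 3 can give. After Benjamini-Hochberg adjustment over the members, this permutation p was 0.35. The limma call was lost without NC replicate 3 (adjusted p = 0.0544, log2 fold change 0.87). In bulk RNA, more cells of a type and more RNA per cell cannot be told apart. BIRC8, an IAP gene whose sequence is close to part of XIAP, was listed at 0 in 5 libraries and at 0.174 FPKM in oeALKBH5 replicate 1. How reads shared by such copies were assigned is not given in the sources used here.

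CASP9 (ENSG00000132906, chromosome 1), the initiator that XIAP inhibits, was the lowest of the 7 members. It stood at 2.41, 1.81 and 2.79 FPKM in NC and at 4.64, 4.07 and 5.52 FPKM in oeALKBH5 replicates 1, 2 and 3. All oeALKBH5 libraries again lay above all NC libraries. The means were 2.34 ± 0.497 and 4.74 ± 0.728 FPKM, and the log2 fold change of 0.79 (SE 0.25, 95% interval 0.21 to 1.36) missed the threshold (limma adjusted p = 0.113). The exact permutation test gave p = 0.1, or 0.35 after adjustment over the 7 members. Because the pseudocount of 1 is large beside these levels, the log2 fold change was 1.00 on the log2(FPKM + 0.1) scale. The ratio of XIAP to CASP9 was 12.02 ± 3.46 in NC and 11.0 ± 3.04 in oeALKBH5 (SD, n = 3), a difference within the spread between libraries. This ratio, and those other than IAP to DIABLO below, were chosen after the values were seen.

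The promoters of these genes are shown because XIAP and CASP9 were the members whose groups did not overlap, and because CASP8 held the 1 interferon response core found among the members. Sequences are from RefSeq (GRCh38.p14), 5′ to 3′ on the gene's strand, with capitals on every match, on either strand, to the 4 motifs searched. These were the GC box GGGCGG, the interferon response element core (GAAA and GAAA, 2 bases apart), the kappa B site (GGGA and TTCC, 2 bases apart) and the hypoxia response core ACGTG. The XIAP sequence is chrX:123859458-123859707 (plus strand), the 250 bases before the first listed start. That of CASP9 is chr1:15524913-15525040 (minus strand), the 128 bases of its upstream window that lie outside the gene. The CASP8 sequence is chr2:201233213-201233472 (plus strand), 250 bases before and 10 after the start.
XIAP: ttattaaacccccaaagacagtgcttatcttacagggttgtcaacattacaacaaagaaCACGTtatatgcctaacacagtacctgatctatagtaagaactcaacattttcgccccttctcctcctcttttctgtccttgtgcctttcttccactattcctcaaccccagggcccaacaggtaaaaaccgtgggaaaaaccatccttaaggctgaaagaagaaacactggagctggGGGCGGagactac
CASP9: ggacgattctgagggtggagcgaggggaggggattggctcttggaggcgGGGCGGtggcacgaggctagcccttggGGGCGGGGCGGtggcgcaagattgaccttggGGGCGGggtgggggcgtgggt
CASP8: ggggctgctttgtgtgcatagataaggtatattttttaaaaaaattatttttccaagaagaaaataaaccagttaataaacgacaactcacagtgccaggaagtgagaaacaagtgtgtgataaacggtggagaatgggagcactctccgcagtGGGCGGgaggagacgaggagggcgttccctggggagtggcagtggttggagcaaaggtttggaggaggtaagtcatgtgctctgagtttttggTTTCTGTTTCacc

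XIAP held 1 GC box and 1 hypoxia core in the stretch shown. CASP9 held 4 GC boxes, of which a middle pair shares a base and runs together in the print. The interferon core of CASP8 begins 3 bases before the listed start, on the opposite strand. RefSeq windows of 300 bases were matched for 6 members, 16 windows in all; BIRC5 had none in the table. At least 1 window of all 6 held a GC box, 12 of 16 windows, where 45.0% of all 35116 windows did. That share counts windows and not genes. Windows of the same gene can overlap, as for XIAP, so 1 GC box can be counted more than once. The hypoxia core was in 4 windows of 3 members (21.4% of all windows), the interferon core in 1 window of CASP8 (3.57%) and the kappa B site in none (1.61%). A match is a stretch of letters and says nothing of binding.

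BIRC2 (ENSG00000110330, chromosome 11) encodes cIAP1, a ubiquitin ligase that works at the TNF receptor and in NF-kB signalling. It stood at 20.5, 25.0 and 18.7 FPKM in NC and at 20.1, 31.4 and 42.8 FPKM in oeALKBH5 replicates 1, 2 and 3. The first oeALKBH5 library lay within the NC range and the other two above it, so the groups overlapped. In oeALKBH5 this was the widest relative spread among the members: the coefficient of variation was 36.0% in oeALKBH5 and 15.3% in NC. The log2 fold change was 0.48 (SE 0.25, 95% interval -0.09 to 1.05, limma adjusted p = 0.301). It was 0.24 without oeALKBH5 replicate 3 and 0.76 without oeALKBH5 replicate 1.

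BIRC3, which encodes the close relative cIAP2, neighbours BIRC2 in the RefSeq gene order. It stood at 2.82, 2.89 and 2.68 FPKM in NC and rose to 9.89, 13.4 and 9.85 FPKM in oeALKBH5 replicates 1, 2 and 3, and limma put the log2 fold change at 1.65 (SE 0.22, 95% interval 1.16 to 2.15, adjusted p = 0.0047). BIRC3 remained below BIRC2 in every library, but its level relative to BIRC2 went from 0.132 ± 0.0147 to 0.383 ± 0.136 (SD, n = 3). That ratio, chosen after the values were seen, did not overlap between groups, as was already so for BIRC3 alone. The summed immune markers given above were higher in the same libraries, though not every marker was. Within oeALKBH5 their sum was lowest in replicate 2 (3.49 FPKM), where BIRC3 was highest, and highest in replicate 3 (7.85 FPKM). The part of these markers in the BIRC3 rise was not tested. Among the remaining IAP genes, NAIP averaged 0.358 ± 0.24 FPKM in NC against 0.953 ± 0.181 FPKM after overexpression. Its groups did not overlap, but it was not called (log2 fold change 0.54, limma adjusted p = 0.372). NAIP has near-identical copies nearby, so the split of its reads is uncertain. BIRC7 was listed at 0 in all 6 libraries. Of the 4 IAP genes outside the members, 2 were tested, with 1 called higher, beside 3.02% of all tested genes. The median log2 fold change of these 2 was 1.09.

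**Figure D2:**
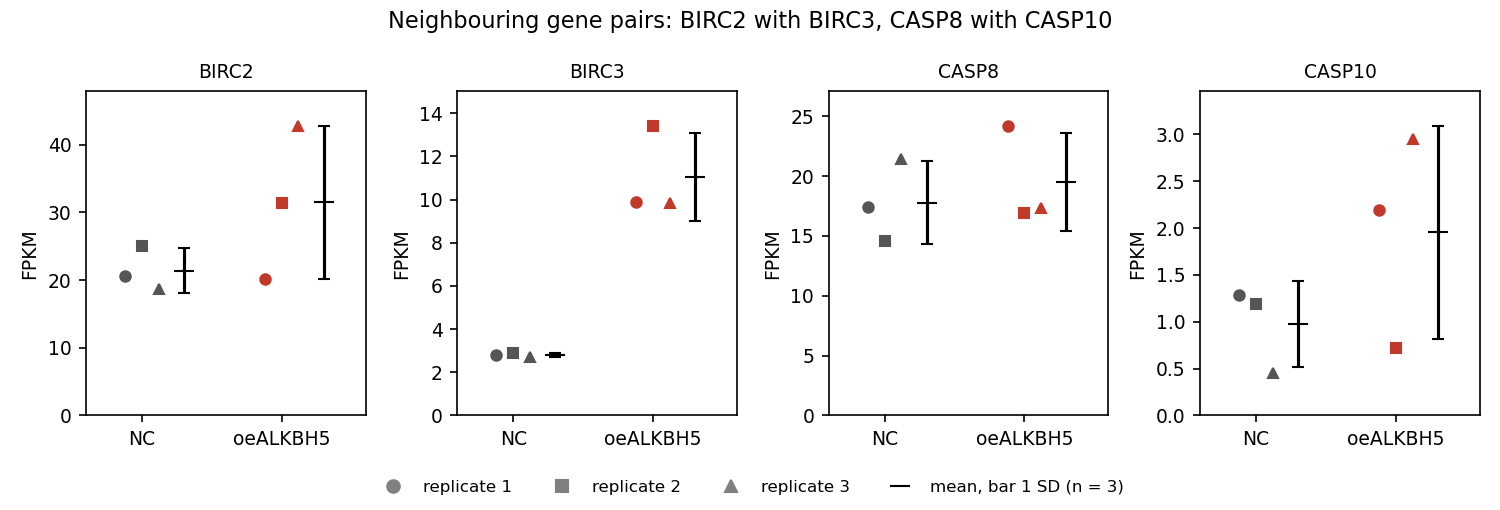
FPKM (linear axis from 0) of 2 pairs of neighbouring, related genes in the 6 input libraries; symbols mark replicates, and the bar is the mean with 1 SD (n = 3). BIRC3 lies above its NC values in all 3 oeALKBH5 libraries, while BIRC2, CASP8 and CASP10 overlap between groups.

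BIRC5 (ENSG00000089685, chromosome 17) stood at 34.2, 43.6 and 48.9 FPKM in NC and at 34.7, 30.3 and 29.0 FPKM in oeALKBH5 replicates 1, 2 and 3. NC replicate 1 lay just below the highest oeALKBH5 library, so the groups touched there and nowhere else. The means were 42.2 ± 7.46 and 31.3 ± 2.99 FPKM, and the log2 fold change of -0.41 (SE 0.15, 95% interval -0.76 to -0.06) was not called (limma adjusted p = 0.165). Survivin's partners in the chromosomal passenger complex, which corrects chromosome attachment in mitosis, are the kinase AURKB, its activator INCENP and borealin (CDCA8). AURKB averaged 40.9 ± 3.37 FPKM in NC against 36.0 ± 9.25 FPKM after overexpression. INCENP stood at 26.3 ± 6.99 and 21.9 ± 2.1 FPKM, and CDCA8 at 20.3 ± 4.92 and 14.9 ± 4.5 FPKM. None of the 3 was called by limma, and none had an unadjusted p under 0.05. Their median log2 fold change was -0.22; that of AURKB changed sign without oeALKBH5 replicate 3, to 0.01.

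BIRC6 (ENSG00000115760, chromosome 2) encodes a giant IAP that joins ubiquitin to its targets and also restrains DIABLO. It was the most abundant member in both groups and had the smallest spread in oeALKBH5, with a coefficient of variation of 6.19% there and 5.67% in NC. Its values were 66.9, 74.7 and 69.5 FPKM in NC and 73.8, 73.0 and 81.5 FPKM in oeALKBH5 replicates 1, 2 and 3. The groups overlapped, and the log2 fold change was 0.11 (95% interval -0.11 to 0.33, limma adjusted p = 0.539). That interval leaves out a change as large as that of XIAP.

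DIABLO (ENSG00000184047, chromosome 12) stood at 39.3, 61.8 and 46.9 FPKM in NC and at 65.0, 51.1 and 62.8 FPKM in oeALKBH5 replicates 1, 2 and 3. NC replicate 2 lay among the oeALKBH5 values. The log2 fold change was 0.29 (SE 0.17, 95% interval -0.11 to 0.68, limma adjusted p = 0.372), and it was 0.14 without NC replicate 1 and 0.46 without NC replicate 2. B3GNT4 overlaps DIABLO in the RefSeq gene table and reached at most 3.38 FPKM; whether counting used strand is not given in the sources used here.

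CASP8 (ENSG00000064012, chromosome 2) stood at 17.4, 14.5 and 21.4 FPKM in NC and at 24.2, 16.9 and 17.4 FPKM in oeALKBH5 replicates 1, 2 and 3. Its groups overlapped, with oeALKBH5 replicate 1 highest and NC replicate 2 lowest. The log2 fold change of 0.12 (SE 0.20, 95% interval -0.33 to 0.58, limma adjusted p = 0.767) changed sign without NC replicate 2 (-0.01) and without oeALKBH5 replicate 1 (-0.04). The ratio of CASP8 to CASP9, the 2 initiators, was 7.23, 8.05 and 7.67 in NC and 5.21, 4.15 and 3.15 in oeALKBH5 replicates 1, 2 and 3. Those groups did not overlap, as was already so for CASP9 alone, and this ratio was chosen after the values were seen. CASP8 was the higher of the initiators in every library. CASP10, its relative and neighbour in the RefSeq gene order, averaged 0.976 ± 0.458 FPKM in NC against 1.96 ± 1.14 FPKM after overexpression (limma adjusted p = 0.471).

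The order of the levels differed between the groups in the places of XIAP, BIRC2 and BIRC5. In NC it ran BIRC6, DIABLO, BIRC5, XIAP, BIRC2, CASP8 and CASP9, from 70.4 to 2.34 FPKM. The ranges of DIABLO and BIRC5 overlapped there, as did those of BIRC2 and CASP8. In oeALKBH5 it ran BIRC6, DIABLO, XIAP, BIRC2, BIRC5, CASP8 and CASP9, from 76.1 to 4.74 FPKM. Ranges there overlapped between DIABLO and XIAP, and BIRC2 overlapped both BIRC5 and CASP8. In oeALKBH5 replicate 1, BIRC2 (20.1 FPKM) lay below CASP8 (24.2 FPKM). XIAP made up 17.62, 16.72 and 15.999% of the summed FPKM of the 4 IAP members in NC and 25.08, 30.53 and 25.07% in oeALKBH5 replicates 1, 2 and 3.

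Since DIABLO displaces caspases from IAPs, each IAP was set against it within each library, with no test. XIAP over DIABLO was 0.662, 0.465 and 0.556 in NC and 0.663, 1.16 and 0.817 in oeALKBH5 replicates 1, 2 and 3. The groups met at replicate 1 of each and were apart elsewhere. BIRC5 over DIABLO went the other way, from 0.869, 0.704 and 1.04 to 0.534, 0.593 and 0.462, with no overlap. Each of these genes alone overlapped between groups, and limma called neither. How often ratios of other gene pairs fail to overlap was not computed. BIRC2 over DIABLO was 0.442 ± 0.07 and 0.535 ± 0.198, and BIRC6 over DIABLO 1.46 ± 0.247 and 1.29 ± 0.147 (NC and oeALKBH5, SD, n = 3), both with overlap. The sum of the 4 IAP members over DIABLO was 3.34 ± 0.501 in NC and 3.23 ± 0.577 in oeALKBH5, a difference within the spread between libraries.

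**Figure D3:**
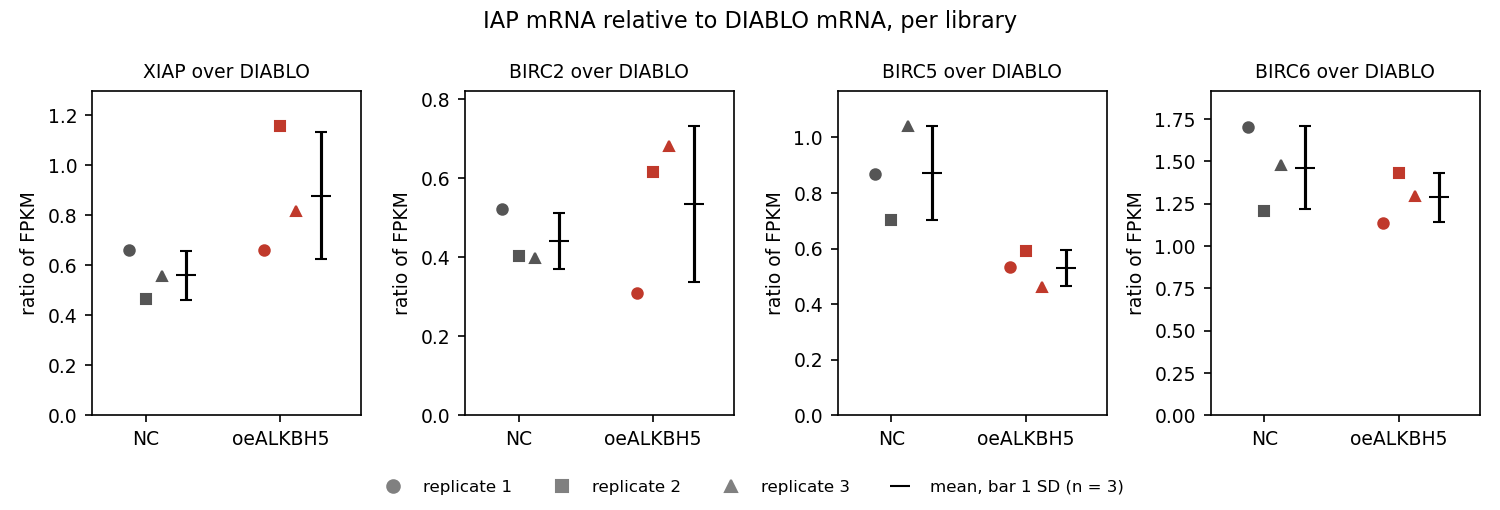
Ratio of FPKM of each IAP member to DIABLO (linear axis from 0) in the 6 input libraries; symbols mark replicates, and the bar is the mean with 1 SD (n = 3). XIAP over DIABLO has means of 0.561 in NC and 0.879 in oeALKBH5, BIRC5 over DIABLO 0.872 and 0.53, and the other 2 overlap.

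Around these members, 6 lists held 39 further genes of the pathway, of which 30 were tested. Of the 30, 1 was called higher (BIRC3), 1 lower (CYCS) and 28 were not called. Among all tested genes 3.02% were called higher and 2.43% lower. The median log2 fold change of the 30 was -0.18. Upstream of caspase 9, the cytochrome c gene CYCS had 212, 254 and 240 FPKM in NC and 196, 170 and 167 FPKM in oeALKBH5 replicates 1, 2 and 3, with no overlap. CYCS fell, with a log2 fold change of -0.40 and an SE of 0.09 (limma adjusted p = 0.0472). This call sat at the threshold and did not outlast the loss of single libraries in 5 of 6 cases: without NC replicate 2 (limma adjusted p = 0.138), NC replicate 3 (0.16), and oeALKBH5 replicate 1 (0.0501), 2 (0.131) or 3 (0.141). APAF1, the scaffold of the apoptosome, averaged 6.48 ± 2.9 FPKM in NC against 9.02 ± 1.13 FPKM after overexpression (limma adjusted p = 0.385). The APAF1 log2 fold change of 0.50 was 0.15 without NC replicate 2 and 0.76 without NC replicate 3.

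At the caspase 8 platform, the adaptor FADD stood at 14.8 ± 1.95 and 12.2 ± 1.49 FPKM and the kinase RIPK1 at 7.94 ± 0.675 and 6.29 ± 0.511 FPKM, in NC and oeALKBH5. RIPK1 did not overlap between groups; neither was called (limma adjusted p = 0.441 and 0.415). Of the 7 apoptosome and platform genes, 1 was called lower, CYCS, beside 2.43% of all tested genes. The median log2 fold change of the 7 was -0.19.

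Among the other caspases, 7 genes were reported on, 4 were tested and none was called by limma. At an unadjusted p under 0.05, CASP4 was lower and none was higher, where 10.3% of all tested genes were lower and 11.6% higher. The inflammatory caspase CASP4 went from 10.6 ± 1.18 to 7.5 ± 1.07 FPKM with no overlap (limma adjusted p = 0.214), and CASP2 stood at 27.5 ± 4.1 and 24.2 ± 2.51 FPKM. CASP6, which cuts nuclear lamins, averaged 9.06 ± 1.73 FPKM in NC against 8.5 ± 5.51 FPKM after overexpression, and its log2 fold change of -0.22 turned to 0.10 without oeALKBH5 replicate 1. The median log2 fold change of these 4, CASP10 included, was -0.20. CASP1, which matures interleukin 1 beta, was below the filter: every NC library listed it at 0, and oeALKBH5 replicates 1, 2 and 3 had 0.795, 1.8 and 0 FPKM. The summed level of the immune markers was higher in the same group, lowest there in replicate 2 and highest in replicate 3. Their part in the CASP1 values was not tested.

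The IAP antagonists and partners showed no call: of 9 genes, 6 were tested, limma called none, and none had an unadjusted p under 0.05. SEPTIN4, whose ARTS product binds XIAP, averaged 1.42 ± 0.293 FPKM in NC against 2.38 ± 1.31 FPKM after overexpression. AREL1, a ligase that acts on IAP antagonists, stood at 17.9 ± 1.1 and 20.3 ± 2.36 FPKM. TAB1, an XIAP partner in kinase signalling, stood at 9.06 ± 2.01 and 7.8 ± 1.55 FPKM, and the cIAP partner TRAF2 at 10.2 ± 2.84 and 9.06 ± 2.9 FPKM. XAF1, an interferon-inducible antagonist of XIAP, was listed at 0 in 5 libraries and at 0.225 FPKM in oeALKBH5 replicate 1. The median log2 fold change of the 6 was -0.02.

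Of 9 genes for proteins that caspases cut, 8 were tested, limma called none, and 4 were lower at an unadjusted p under 0.05 while none was higher, where 10.3% of all tested genes were lower. The log2 fold change was negative for 6 of the 8, and for 6090 of all 12757 genes. PARP1, a DNA repair enzyme and classic caspase substrate, stood at 101, 123 and 107 FPKM in NC and at 87.3, 71.8 and 82.4 FPKM in oeALKBH5 replicates 1, 2 and 3. Its groups did not overlap, and its log2 fold change of -0.45 just missed the threshold (limma adjusted p = 0.0527), and it passed in 1 of 13 alternatives (0.0439, libraries scaled to a common median) and otherwise reached up to 0.153. The nuclear lamina genes LMNA and LMNB1 stood at 25.0 ± 0.958 and 174 ± 49.95 FPKM in NC and at 18.0 ± 2.35 and 115 ± 17.1 FPKM in oeALKBH5 (limma adjusted p = 0.11 and 0.153). LMNA did not overlap between groups, while LMNB1 did. The LMNB1 log2 fold change of -0.55 became -0.80 without NC replicate 1 (limma adjusted p = 0.0314) and -0.37 without NC replicate 2 (0.34), and the other 12 alternatives gave no call. ACIN1, which condenses chromatin when cut, stood at 82.0 ± 4.9 and 67.8 ± 4.2 FPKM, with no overlap. The median log2 fold change of the 8 was -0.27. GSDMD, the pore former of pyroptosis, was below the filter: every NC library listed it at 0, and the oeALKBH5 libraries had 0.496, 1.39 and 0.907 FPKM.

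**Figure D4:**
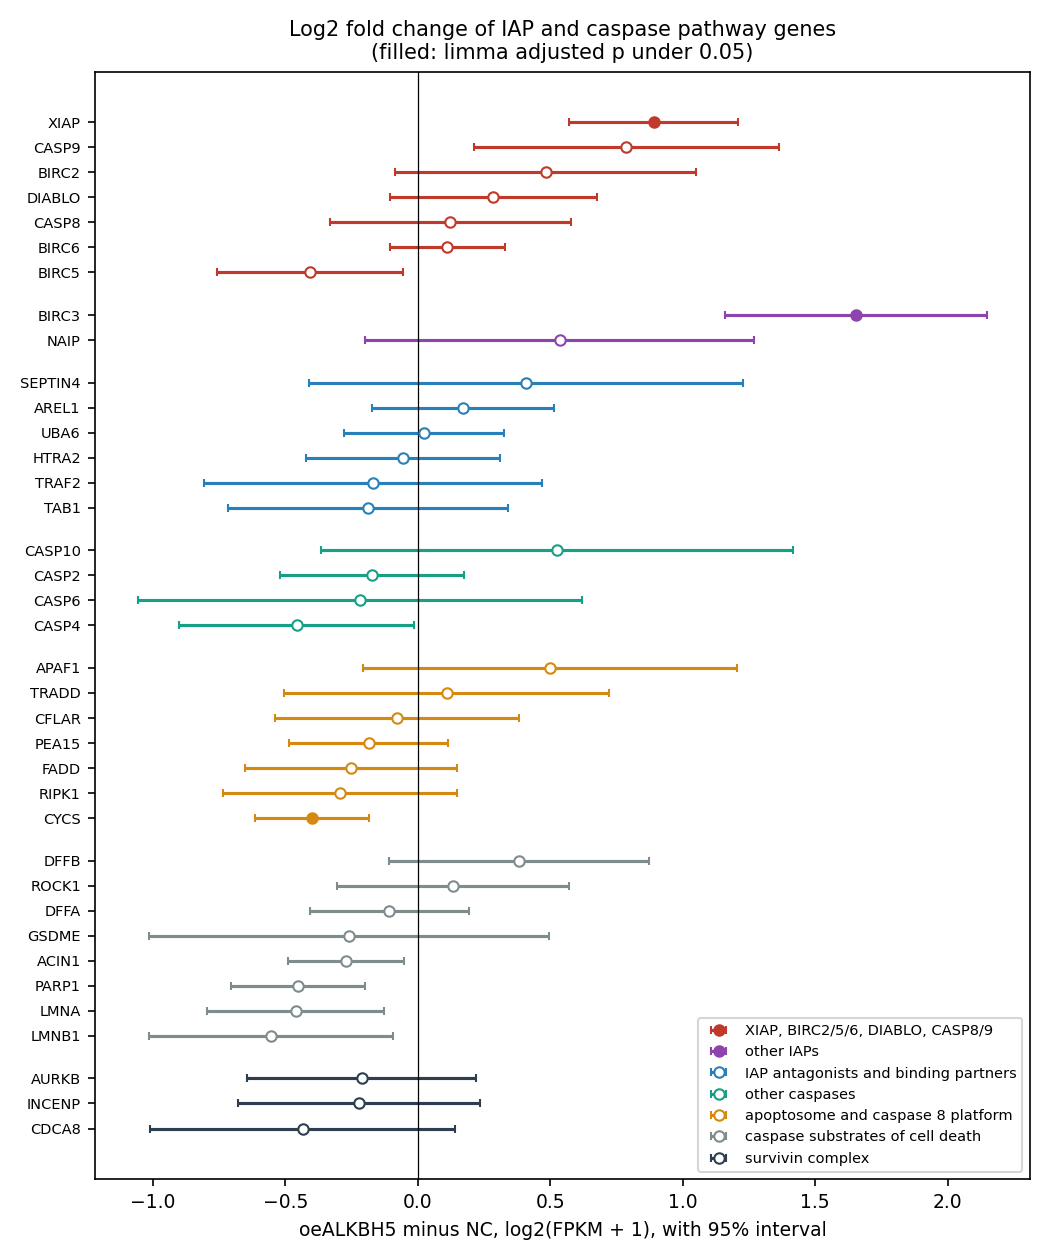
Log2 fold change, oeALKBH5 minus NC on log2(FPKM + 1), of the 7 members and the 30 tested genes of 6 pathway lists, with limma's 95% interval; filled points have an adjusted p under 0.05 over all 12757 genes. XIAP (0.89) and BIRC3 (1.65) are filled to the right of 0, CYCS (-0.40) to the left.

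The genes whose pattern over the 6 libraries was most like each member were found by Pearson's r on log2(FPKM + 1) among 11966 other genes that averaged 1 FPKM or more. For XIAP they were CCNI (r = 0.998) and FCGRT (r = 0.998), and 255 genes reached 0.95. CASP9 was followed by SPRED1 (r = 0.997) and UBE2L6 (r = 0.993), with 103 genes at 0.95 or more. BIRC5 was nearest to GAS2L1 (r = 0.992) and PDE4D (r = 0.991), with 51 such genes. For BIRC2 the nearest were C1orf210 (r = 0.99) and AGA (r = 0.987), for BIRC6 SLPI (r = 0.991) and ENSG00000174111 (r = 0.983), and for DIABLO KLHL7 (r = 0.984) and HDAC5 (r = 0.982). CASP8 had the fewest like it, 7 genes, led by ENSG00000005955 (r = 0.978) and XPO1 (r = 0.969). These values share 6 libraries and 2 groups, and a high r over so few points is common among so many genes.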

How the data were processed

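Total RNA of 3 NC and 3 oeALKBH5 input libraries was rRNA-depleted and sequenced from directional libraries, per the labels' protocols. Tools listed in the submitters' processing notes are HISAT2 2.0.4, cutadapt 1.9.3, Cufflinks and Cuffdiff, with hg19. The deposited values were taken as FPKM from those tools and the values, since the table names no unit. Of 20308 genes, 19434 had a symbol. The 12757 genes averaging 0.5 FPKM or more entered limma 3.58.1 (R 4.3.3, intensity trend) as log2(FPKM + 1), with Benjamini-Hochberg adjustment over all of them. The limma step was tested on simulated data. Ratios, orders and likeness were computed in Python 3.11.15. No 2 libraries shared more than 1 identical value above 0.

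The members and gene lists were chosen with earlier results of these data known. Genes were named by rule: all members, called list genes and up to 4 per list with the smallest p; XAF1, CASP1, GSDMD, BIRC7, BIRC8 and the marker genes (KRT8, the immune and the fibroblast genes) were added after their values were seen. Of the list genes, MAP3K14 was not matched, and some items are not reported here and were left out of the list counts. The m6A peak lists are in hg19 and name no genes, so they were not analysed here.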

Additional observations from a re-analysis of the deposited data

How the results depend on the processing

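XIAP kept its direction and its call in 12 of 13 alternatives, with log2 fold changes of 0.78 to 1.01 when 1 library was left out. The exception was without NC replicate 3 (0.87, limma adjusted p = 0.0544). Other calls of XIAP sat near the threshold, with no intensity trend (limma adjusted p = 0.0478) and without oeALKBH5 replicate 3 (0.0485). Fewer samples entered every fit without 1 library. BIRC2 (0.24 to 0.76), BIRC5 (-0.55 to -0.30), BIRC6 (0.06 to 0.16), DIABLO (0.14 to 0.46) and CASP9 (0.67 to 0.88 without 1 library, 0.64 to 1.00 in the other 7 alternatives) kept their sign and were called in none of their 13 alternatives. The CASP8 log2 fold change ran from -0.0365 to 0.258 and turned negative without NC replicate 2 (-0.01) and without oeALKBH5 replicate 1 (-0.0365). TRAF2 (-0.364 to 0.0697 without 1 library) turned positive without NC replicate 2 (0.0109) and without oeALKBH5 replicate 3, and AURKB (-0.355 to 0.0118) without oeALKBH5 replicate 3. CASP6 (-0.66 to 0.102) turned positive without oeALKBH5 replicate 1. The number of genes called over the table, 695, was 421 with no filter, 270 with no intensity trend and 206 to 398 without 1 library. CYCS was also not called with no filter, with no trend, under quantile normalization or with the block. Same-numbered libraries showed no shared deviation from their group means, with correlations of -0.02, -0.02 and 0.03. Those of differently numbered libraries ran from -0.03 to 0.05. These values cannot tell whether same-numbered libraries were handled together. With the replicate number as a block 344 genes were called, and XIAP was among them (adjusted p = 0.0271). The differences in IAP to DIABLO ratio kept their sign without each library, from 0.179 to 0.427 for XIAP, 0.021 to 0.206 for BIRC2, -0.426 to -0.257 for BIRC5 and -0.304 to -0.0575 for BIRC6. Absolute depth could not be read from FPKM, so the precision of low genes such as CASP9 is unknown beyond the spread between libraries. The m6A peaks planned for the members were not run.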
